A study of Mus musculus with 8 samples.

Results

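The ubiquitin ligases of muscle atrophy were examined in skeletal muscle of Ctrl and LSD1skm-/- mice. The group holds 8 genes chosen by name, *Fbxo32*, *Trim63*, *Trim54*, *Trim55*, *Fbxo30*, *Fbxo31*, *Fbxo40* and *Fbxo21*, out of 27041 rows of the count table, and all 8 were among the 11364 genes with a mean count above 50. Ctrl mice carried LSD1 alleles with a floxed first exon (LSD1 L2/L2) and no Cre, and LSD1skm-/- mice carried the same alleles with HSA-Cre, a transgene active in myofibers. The labels give an age of 9 weeks and the strain C57BL/6J for every library, and the methods describe male mice. The labels describe 8 libraries of skeletal muscle, 4 per group, and the methods name the gastrocnemius. Ctrl replicates 1 to 4 and LSD1skm-/- replicates 1 and 2 were analysed, and LSD1skm-/- replicates 3 and 4 were not analysed here. Cells other than myofibers keep LSD1 in the mutant mice, and in whole muscle fewer cells of a type and less RNA per cell cannot be told apart.

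A ubiquitin ligase brings a substrate protein to a ubiquitin-conjugating enzyme (E2), and a chain of ubiquitin then marks the substrate for the proteasome. The MuRF proteins, encoded by *Trim63*, *Trim55* and *Trim54*, are RING-finger ligases of the sarcomere. F-box proteins are the substrate-binding subunits of SCF ligases, which also contain SKP1, the scaffold CUL1 and the RING protein RBX1. *Fbxo32* (Atrogin1) and *Trim63* (Murf1) are induced during fasting, glucocorticoid excess and denervation by FoxO factors and the glucocorticoid receptor (GR), and their transcripts are widely used as markers of muscle atrophy.

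*Kdm1a*, which encodes LSD1, was measured first as a check of the labels. Its level, in CPM (counts scaled to the library's TMM-adjusted size), was between 21.96 and 28.06 in Ctrl replicates 1 to 3 and was 2.962 and 3.483 in the LSD1skm-/- libraries. The library labelled Ctrl replicate 4 had 3.658 CPM, which goes against its label. Over the tested genes, its counts were closest to those of LSD1skm-/- replicate 1, with a chi-square of 32.9 per degree of freedom, the smallest of all pairs of libraries, against 46.5 to LSD1skm-/- replicate 2 and 67.8 to 95.4 to the other Ctrl libraries. The ligases are therefore compared by the labels, with 4 Ctrl against 2 LSD1skm-/- libraries, and again without that library. Totals were between 30654828 and 41278769 counts per library, and the ligases had between 215 and 25093 reads each per library. With all 6 libraries 0 of 11364 genes had an adjusted p under 0.05 by edgeR's quasi-likelihood test (0% called), 46 did by DESeq2 (0.405%), and 1011 had an unadjusted p under 0.05 by edgeR. Without the library labelled Ctrl replicate 4, 612 genes passed in edgeR, which is 5.39%, and 143 to 504 did when 1 further library was left out. Myofiber markers (*Acta1*, *Ckm*, *Mb*, *Des*, *Ttn*, *Mylpf*) summed to between 85980 and 96350 CPM in every library. Of these 6 genes, 3 were higher in LSD1skm-/- muscle with all 6 libraries. *Ttn* was lower, at 10050 to 11410 CPM in Ctrl against 9694 and 6791 CPM (adjusted p = 0.557, edgeR). The 8 slow fiber genes were all lower in LSD1skm-/- muscle, summing to between 1034 and 2074 CPM in Ctrl against 443.9 and 797 CPM. The 6 tested adipocyte genes were also all lower, summing to between 171.7 and 488.8 CPM in Ctrl against 166.1 and 177.4 CPM, with *Adipoq* and *Cidec* below 1 CPM in Ctrl replicate 3 and in both LSD1skm-/- libraries. The 6 fibroblast genes were all higher, at 430 to 475.8 CPM in Ctrl replicates 1 to 3 against 607.7 and 717.4 CPM. The library labelled Ctrl replicate 4 had 699.2 CPM of these genes. The 5 blood genes were also all higher, at 28.16 to 52.24 CPM in Ctrl against 64.12 and 65.83 CPM. Endothelial genes summed to 169 to 222.5 CPM in Ctrl against 147.8 and 148.3 CPM. The library labelled Ctrl replicate 4 was the highest Ctrl library for adipocyte, blood and endothelial genes, at 488.8, 52.24 and 222.5 CPM. It had 1192 CPM of slow fiber genes, inside the range of Ctrl replicates 1 to 3. The part of these markers in the ligase values was not tested.

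Levels of the ligases were first compared per length of exon, in CPM per kilobase, on GRCm38. *Trim54*, encoding MuRF3, which binds microtubules and the sarcomere, had the highest level, at 356.2 ± 54.39 CPM per kilobase in Ctrl (SD, n = 4). *Trim63*, encoding MuRF1, a ligase for myosin heavy chains and other thick filament proteins, followed with 131.2 ± 79.32. *Fbxo40*, encoding a muscle-restricted F-box protein that targets IRS1, was at 85.06 ± 10.77, and *Fbxo32*, whose product targets MYOD1 and eIF3f, at 59.61 ± 31.15 CPM per kilobase in Ctrl. The ranges over the 6 libraries of *Trim63* (70.83 to 238.5), *Fbxo40* (73.14 to 97.08) and *Fbxo32* (32.02 to 104.3) overlapped, so the order of these 3 genes is not resolved by their spread. The range of *Trim54*, 277.4 to 417.8 CPM per kilobase, lay above that of *Trim63*. With the longest coding transcript in place of all exons, *Trim63* was at 197.8 and its range, 106.7 to 359.3, overlapped that of *Trim54*.

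Lower mean levels were found for *Fbxo31*, encoding an F-box protein that targets cyclin D1, with 25.63 ± 5.98 CPM per kilobase, and *Trim55*, encoding the titin-associated MuRF2, with 20.12 ± 3.046 (SD, n = 4 Ctrl). These overlapped as well, at 17.68 to 32.12 for *Fbxo31* and 17.13 to 24.06 CPM per kilobase for *Trim55*, and the highest library of *Fbxo31* lay above the lowest of *Fbxo32* (32.02), so these neighbours are not resolved either. *Fbxo30* (MUSA1), which is opposed by BMP signaling and needed for denervation atrophy, had 2.885 ± 0.293 CPM per kilobase. *Fbxo21* (SMART), a FoxO-dependent F-box gene, had the lowest level at 1.829 ± 0.2563 CPM per kilobase, and its highest library, at 2.157, lay below the lowest of *Fbxo30*, at 2.484. With the longest coding transcript the 2 ranges overlapped, at 1.711 to 3.021 for *Fbxo21* and 2.551 to 3.842 for *Fbxo30*.

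**Figure D1:**
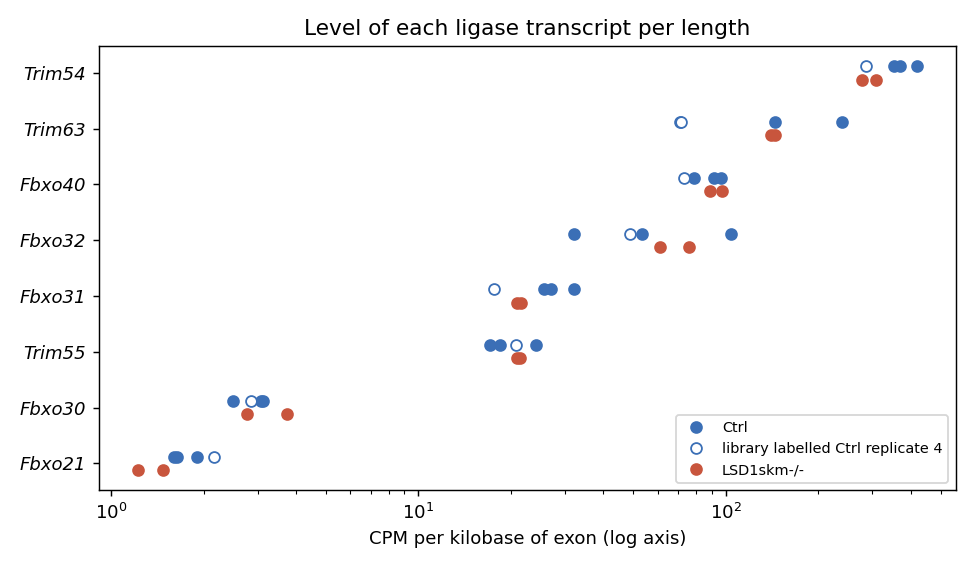
Level of each ligase transcript in CPM per kilobase of exon (log axis), with a point for each of 4 Ctrl (blue, open for the library labelled Ctrl replicate 4) and 2 LSD1skm-/- (red) libraries. *Trim54* lies highest, at 277.4 to 417.8, and *Fbxo21* lowest, at 1.222 to 2.157.

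*Fbxo32* and *Trim63* varied most between Ctrl mice. *Fbxo32* (chromosome 15, 58175879 to 58214932, minus strand, 9 exons) had 372, 223.4, 727.3 and 340.6 CPM in Ctrl replicates 1 to 4 and 527.9 and 427.5 CPM in LSD1skm-/- replicates 1 and 2. Both LSD1skm-/- libraries thus lay inside the Ctrl range, which spanned a factor of 3.26. *Trim63* (chromosome 4, 134315120 to 134329629, plus strand, 9 exons in its longest coding transcript) had 409.7, 201.3, 677.7 and 203.3 CPM in Ctrl replicates 1 to 4 and 398.6 and 409.8 CPM in LSD1skm-/- replicates 1 and 2. Its Ctrl range spanned a factor of 3.37, against 1.03 between the LSD1skm-/- libraries. For both genes Ctrl replicate 3 was highest and Ctrl replicate 2 lowest, so the spread does not rest on the library whose *Kdm1a* level goes against its label.

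**Figure D2:**
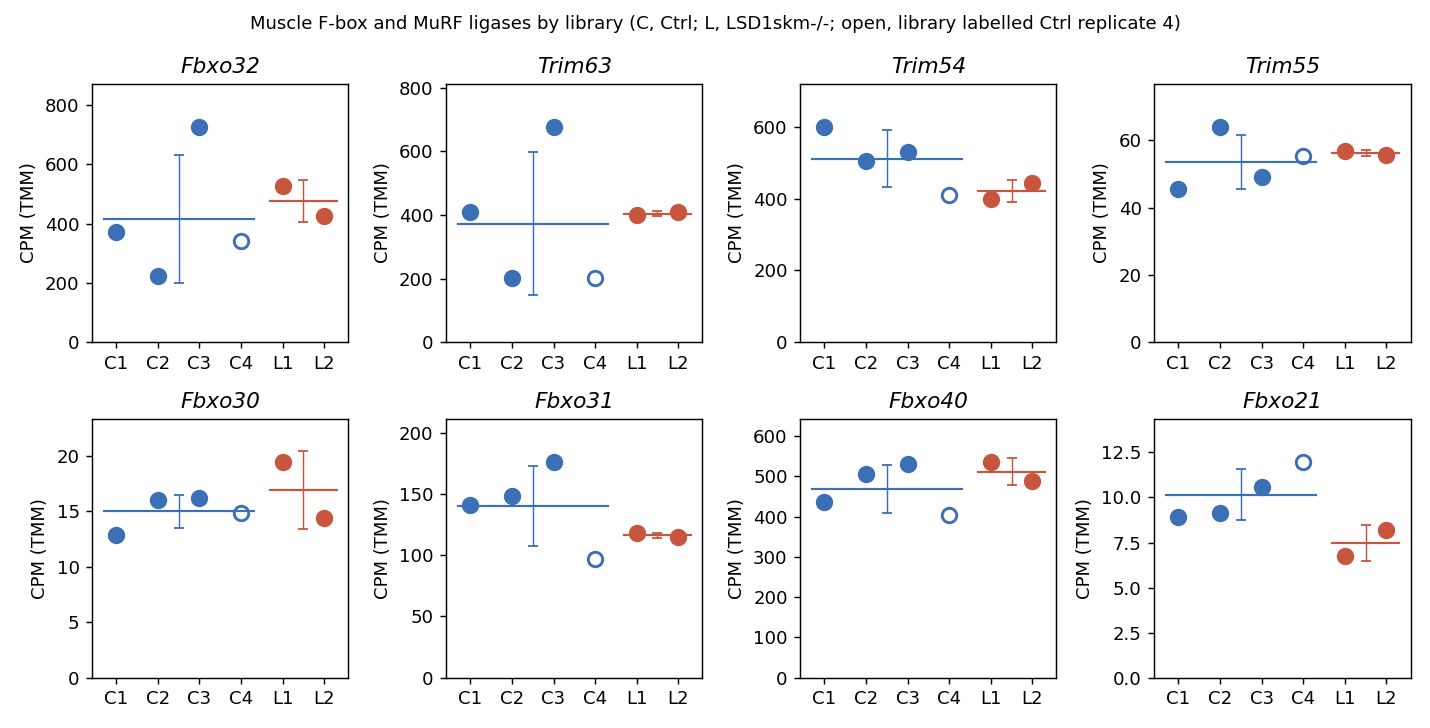
CPM of the 8 ligases in each library, Ctrl replicates 1 to 4 (C1 to C4, blue, open for the library labelled Ctrl replicate 4) and LSD1skm-/- replicates 1 and 2 (L1 and L2, red), with group means (horizontal lines) and SD (bars). *Fbxo32* reaches from 223.4 to 727.3 CPM within Ctrl, whereas *Fbxo40* reaches from 403.5 to 530.7.

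Over Ctrl replicates 1 to 3, the SD of log2 CPM was 0.854 for *Fbxo32* and 0.88 for *Trim63*, against a median of 0.134 over all tested genes. These values exceeded the SD of 98.8% and 98.9% of tested genes. With the library labelled Ctrl replicate 4 included, the SD was 0.705 and 0.851, above 96.8% and 97.9% of genes. The other 6 ligases had an SD between 0.128 (*Trim54*) and 0.258 (*Trim55*) over Ctrl replicates 1 to 3, from the 47.3rd to the 81.8th percentile of tested genes. High spread was thus found in the 2 atrophy markers and not across the ligases as a group. *Trim54* and *Fbxo40*, with CPM close to those of *Fbxo32* and *Trim63*, had Ctrl ranges of a factor of 1.46 and 1.32.

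**Figure D3:**
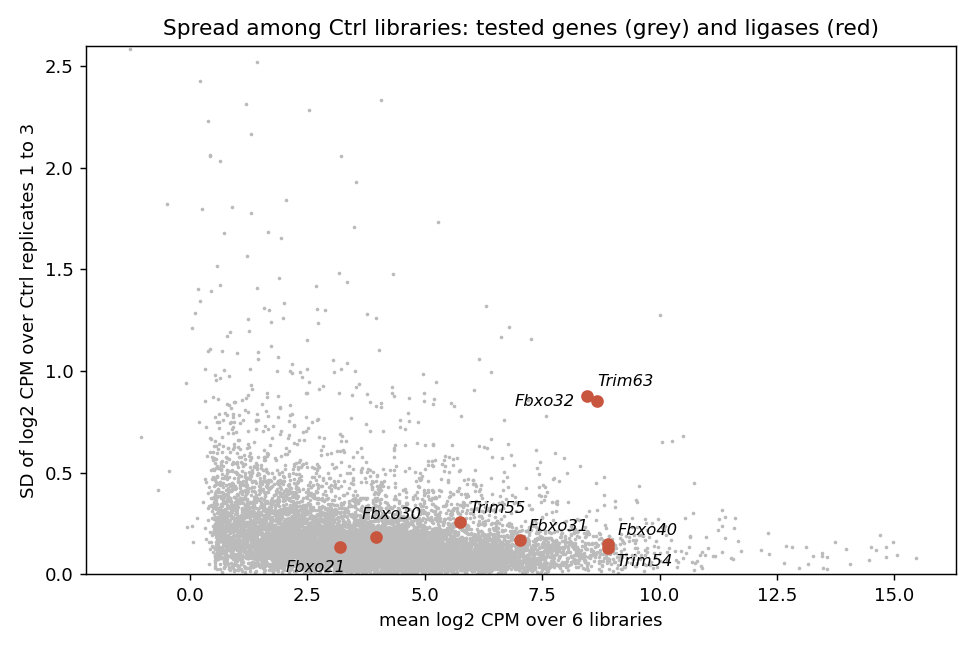
SD of log2 CPM over Ctrl replicates 1 to 3 (vertical axis) against mean log2 CPM over 6 libraries (horizontal axis) for tested genes (grey) and the 8 ligases (red). *Fbxo32* and *Trim63*, at 0.854 and 0.88, lie above most genes of any level, the other ligases lie at or below 0.258, and 11 genes lie above the axis limit of 2.6.

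The 2 genes had similar profiles over the libraries. The ratio of *Fbxo32* to *Trim63* reads was between 0.908 and 1.11 in Ctrl replicates 1 to 3, 1.68 in the library labelled Ctrl replicate 4, and 1.32 and 1.04 in the LSD1skm-/- libraries. After each gene was centered on its own mean, the root mean square distance between their log2 CPM over the 6 libraries was 0.284, the smallest distance of *Fbxo32* to any of the other ligases (0.486 to 0.629 for the rest). Among the 11363 other tested genes, *Fbxo32* ranked 7 by closeness to *Trim63*, and *Trim63* ranked 17 by closeness to *Fbxo32*. The gene nearest to *Trim63* was *Klhl38*, a muscle kelch-family gene, at a distance of 0.111, with 40.89, 22.36, 74.23 and 23.11 CPM in Ctrl replicates 1 to 4 and 43.36 and 37.3 CPM in LSD1skm-/- muscle. It was followed by *Gm5532* at 0.248, *Cebpd*, a glucocorticoid-induced transcription factor, at 0.261, *Slc7a8*, an amino acid transporter, at 0.264 and *Arrdc3*, an arrestin-domain gene, at 0.271. The genes nearest to *Fbxo32* were *Gm5532* (0.117), *Zfp939* (0.224), *Klhl38* (0.232), *A530013C23Rik* (0.241) and *Vwa3b* (0.242). *Gm5532*, *Zfp939*, *A530013C23Rik* and *Vwa3b* were below 7 CPM in every library, so counting error weighs more in their profiles.

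Targets of GR and FoxO, from a list of 21 genes, often had the same lowest and highest libraries among Ctrl replicates 1 to 3. In 14 of the 21, Ctrl replicate 2 was lowest, Ctrl replicate 1 intermediate and Ctrl replicate 3 highest among these 3, against 17.3% of tested genes, and 2 of the 8 ligases, *Fbxo32* and *Trim63*, had that order. *Pdk4*, encoding a kinase that inhibits pyruvate dehydrogenase, had 1124, 368.2 and 2114 CPM in Ctrl replicates 1, 2 and 3. *Ddit4*, encoding an inhibitor of TORC1, had 134.3, 48.98 and 239.4 CPM in the same libraries. From a separate list of 19 upstream regulators, *Foxo1*, encoding a FoxO factor, had 101.4, 39.58 and 130.2 CPM. *Klf15* of that list, a GR target that encodes a transcription factor, had 53.44, 43.1 and 74.12 CPM. *Fkbp5*, a GR target in the list of 21, had 400.3, 181.5 and 277.1 CPM, highest in Ctrl replicate 1. The order leaves out the library labelled Ctrl replicate 4. There *Pdk4* and *Ddit4* had 1250 and 194.4 CPM, above Ctrl replicate 2, and *Fkbp5* had 181.6 CPM, level with it. *Foxo1* and *Klf15* had 33.77 and 27.23 CPM in that library, below Ctrl replicate 2. Of the 8 slow fiber genes, 7 also had this order, as did 7 of 19 upstream regulators, and the part of fiber type in the spread was not tested. The order was chosen from the values of *Fbxo32* and *Trim63*, so these counts are descriptions.

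**Figure D4:**
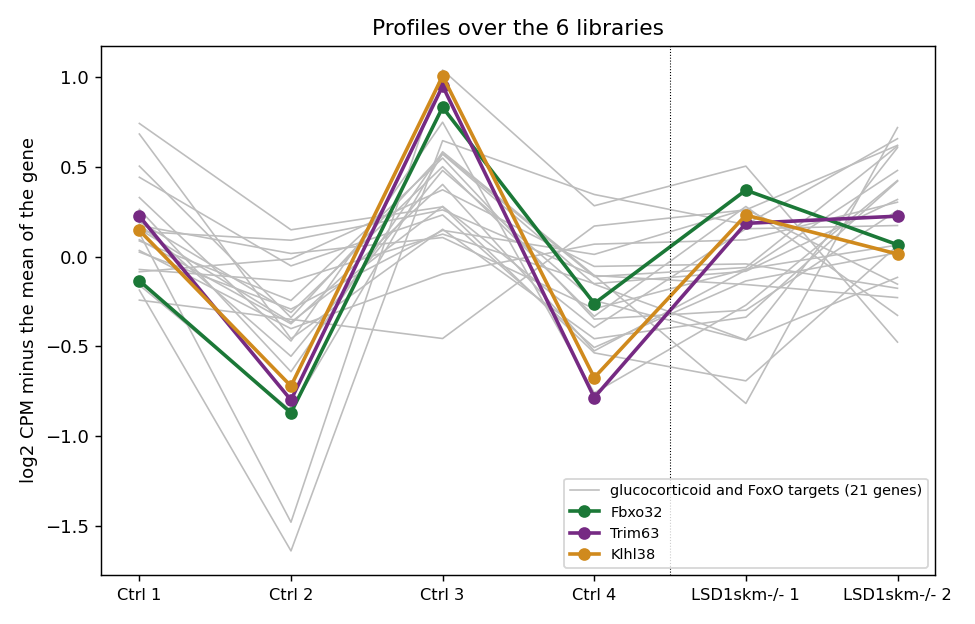
Log2 CPM minus each gene's mean (vertical axis) in the 6 libraries (horizontal axis) for *Fbxo32* (green), *Trim63* (purple), *Klhl38* (orange) and 21 glucocorticoid and FoxO targets (grey). The coloured genes are highest in Ctrl replicate 3, where *Trim63* had 677.7 CPM, and low in Ctrl replicate 2, where it had 201.3 CPM.

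Promoters are shown for *Trim63*, one of the 2 ligases with wide Ctrl spread, and for *Trim54* and *Fbxo31*, which are compared between the groups further on. RefSeq promoters on GRCm38.p6 were matched for 6 of the 8 ligases, in 7 windows. No window was available for *Fbxo32* and *Trim55*, so their promoters were not searched. Each sequence holds the 250 bases before the start site, 5′ to 3′ on the gene's strand, from chr4:134314870-134315119 (plus strand) for *Trim63*, chr5:31116362-31116611 (plus strand) for *Trim54* and chr8:121578807-121579056 (minus strand) for *Fbxo31*. Capitals mark the GR hexamer AGAACA, the GR palindrome in which any first base and GAACA are followed by 3 bases and TGTTCT, and the FoxO motif GTAAACA, on either strand.
Trim63: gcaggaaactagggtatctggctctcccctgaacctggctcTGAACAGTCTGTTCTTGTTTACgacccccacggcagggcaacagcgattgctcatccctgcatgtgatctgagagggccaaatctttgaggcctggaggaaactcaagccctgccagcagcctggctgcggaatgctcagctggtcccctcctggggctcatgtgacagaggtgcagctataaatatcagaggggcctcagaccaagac
Trim54: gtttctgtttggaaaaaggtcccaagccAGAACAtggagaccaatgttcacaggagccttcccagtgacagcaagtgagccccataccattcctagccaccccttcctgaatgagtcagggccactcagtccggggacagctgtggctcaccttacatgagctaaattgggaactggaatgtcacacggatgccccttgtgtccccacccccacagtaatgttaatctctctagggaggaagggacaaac
Fbxo31: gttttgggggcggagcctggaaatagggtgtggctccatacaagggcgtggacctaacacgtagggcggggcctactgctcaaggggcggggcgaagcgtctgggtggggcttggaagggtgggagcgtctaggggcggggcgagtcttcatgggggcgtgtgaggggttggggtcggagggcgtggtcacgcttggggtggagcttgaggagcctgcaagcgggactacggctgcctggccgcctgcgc

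In the *Trim63* promoter, TGAACAGTCTGTTCT lay from 209 to 195 bases before the start site, and the FoxO motif, read on the other strand as TGTTTAC, followed directly, from 194 to 188 bases before it. The strict palindrome, with AGAACA on its left side, occurred in 3 of 32851 promoter windows of this length and in none of the 7 ligase windows. The form with any first base, added after the *Trim63* sequence was seen, occurred in 10 of the 32851, including that of *Trim63*. The FoxO motif was found in 3.17% of all windows and, among the ligases with a window, in that of *Trim63*. The hexamer AGAACA, which overlaps the palindrome, was found in 16.1% of all windows, and in those of *Trim63* and *Trim54* and in 1 of 2 windows of *Fbxo40*. The palindromic NRF1 motif, present in 0.782% of windows, was in none of the 7, and the E-box CANNTG, present in 66.2%, was in those of *Trim63* (3 matches), *Trim54* (2 matches) and *Fbxo40*. The *Fbxo31* window had none of these motifs, with a GC content of 68% against a median of 52.4% over all windows. A match describes letters only, and enhancers outside these windows were not searched.

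Between the groups, *Fbxo32* had a log2 fold change of 0.20 in LSD1skm-/- over Ctrl muscle (standard error 0.40, 95% interval -0.74 to 1.14, edgeR quasi-likelihood, Benjamini-Hochberg adjusted p = 0.879). *Trim63* was at 0.12 (standard error 0.47, 95% interval -0.99 to 1.22, adjusted p = 0.948). The exact permutation test of the library values gave p = 0.6 for *Fbxo32* and p = 0.8 for *Trim63*. Without the library labelled Ctrl replicate 4 *Fbxo32* was at 0.12 and *Trim63* turned to -0.09, with 95% intervals of -0.88 to 1.11 and -1.07 to 0.89 (adjusted p = 0.907 and 0.932, edgeR). The difference between groups was 0.463 and 0.362 of the SD among the 4 Ctrl libraries on the log2 scale, for *Fbxo32* and *Trim63*. It accounted for 8.47% and 5.5% of the sum of squares over the 6 libraries, against a median of 19.4% over all tested genes. The remainder lay within the groups. The intervals of *Fbxo32* include a doubling (a log2 fold change of 1) in both comparisons. That of *Trim63* includes a doubling with all 6 libraries, and a change of the same size downward without the library labelled Ctrl replicate 4.

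The values of the 2 genes depended on Ctrl replicates 2 and 3. Without Ctrl replicate 3, *Fbxo32* was at 0.61 with an unadjusted p of 0.0303 (adjusted p = 0.791, edgeR), and *Trim63* at 0.57 (adjusted p = 0.798). Without Ctrl replicate 2 they were at -0.01 and -0.09 (adjusted p = 0.997 and 0.969, edgeR). *Fbxo32* was at 0.03 without LSD1skm-/- replicate 1 and at 0.34 without LSD1skm-/- replicate 2, whereas *Trim63* was at 0.13 and 0.10. The fitted *Fbxo32* and *Trim63* differences therefore ranged over more than their own size as single libraries were left out.

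*Trim54* (chromosome 5, 31116712 to 31137630, plus strand) had 600.0, 505.7, 529.3 and 410.9 CPM in Ctrl replicates 1 to 4 and 398.4 and 442.3 CPM in LSD1skm-/- replicates 1 and 2. Ctrl replicates 1 to 3 were all above the LSD1skm-/- libraries, and the library labelled Ctrl replicate 4 lay between those. With all 6 libraries its log2 fold change was -0.28 (standard error 0.16, 95% interval -0.65 to 0.09, adjusted p = 0.599, edgeR's quasi-likelihood test). Without that library it was -0.37 (standard error 0.12, 95% interval -0.65 to -0.10), with an unadjusted p of 0.0144 and an adjusted p of 0.127 in edgeR. DESeq2, without the same library, gave -0.38 and an adjusted p of 0.0316. It was at -0.20 without Ctrl replicate 1 and at -0.21 without LSD1skm-/- replicate 1, both from fits that kept the library labelled Ctrl replicate 4. In fits without it, *Trim54* was at -0.31 without LSD1skm-/- replicate 1, with an unadjusted p of 0.0845 in edgeR.

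*Fbxo31* (chromosome 8, 121549440 to 121578806, minus strand) had 140.8, 148.1, 176.1 and 96.93 CPM in Ctrl replicates 1 to 4 and 117.8 and 114.7 CPM in LSD1skm-/- replicates 1 and 2. Again the groups separated among Ctrl replicates 1 to 3, and the library labelled Ctrl replicate 4 was below every other library. The log2 fold change of *Fbxo31* was -0.27 with all 6 libraries (standard error 0.21, 95% interval -0.77 to 0.22, adjusted p = 0.683, edgeR's quasi-likelihood test). It was -0.41 without the library labelled Ctrl replicate 4 (standard error 0.12, 95% interval -0.70 to -0.12, unadjusted p = 0.0117, adjusted p = 0.114 in edgeR). The adjusted p in DESeq2 was 0.0281 in that comparison. In edgeR *Fbxo31* was the only ligase there past the study's thresholds, an unadjusted p under 0.05 and a fold change above 1.3 or below 0.77, which 15.2% of tested genes passed, and 5.05% of tested genes passed downward. In DESeq2, the study's tool, *Trim54* and *Fbxo31* both passed them, as did 14.6% of tested genes, and so did both in edgeR with RLE scaling. Leaving out Ctrl replicate 3 instead gave -0.15 for *Fbxo31*. With LSD1skm-/- replicate 2 left out besides the library labelled Ctrl replicate 4 it was at -0.40 (unadjusted p = 0.0519, edgeR).

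*Fbxo21* (chromosome 5, 117976730 to 118010201, plus strand) had 8.912, 9.118, 10.58 and 11.96 CPM in Ctrl replicates 1 to 4 and 6.774 and 8.188 CPM in LSD1skm-/- replicates 1 and 2. It was the only ligase whose groups did not overlap with all 6 libraries, and the library labelled Ctrl replicate 4 was the highest. Of tested genes 17.8% did not overlap, and 8.02% were lower in LSD1skm-/- muscle without overlap. Its log2 fold change was -0.44 with all 6 libraries (standard error 0.17, 95% interval -0.83 to -0.05, adjusted p = 0.557, edgeR's quasi-likelihood test). The unadjusted p was 0.0328, so *Fbxo21* passed the study's thresholds, as did 6.31% of tested genes, with 2.88% of tested genes downward. Without the library labelled Ctrl replicate 4 it was at -0.35, with an unadjusted p of 0.0498 and an adjusted p of 0.247 in edgeR. It was -0.42 without Ctrl replicate 3, -0.32 without LSD1skm-/- replicate 1 and -0.58 without LSD1skm-/- replicate 2, with unadjusted p-values of 0.0636, 0.197 and 0.0376 in edgeR. In fits without the library labelled Ctrl replicate 4, removing any of Ctrl replicates 1 to 3 or LSD1skm-/- replicate 1 took *Fbxo21* to between -0.40 and -0.23, with unadjusted p-values from 0.0594 to 0.223 in edgeR. At 215 to 523 reads per library, *Fbxo21* had the fewest reads of the 8 ligases.

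The other 3 ligases did not separate the groups. *Trim55* (chromosome 3, 19644474 to 19692421, plus strand) had 45.54, 63.98, 49.04 and 55.44 CPM in Ctrl replicates 1 to 4 and 56.9 and 55.67 CPM in LSD1skm-/- muscle. Its log2 fold change was 0.07 (95% interval -0.26 to 0.41, adjusted p = 0.877, edgeR's quasi-likelihood test). *Fbxo30* (chromosome 10, 11281330 to 11298052, plus strand) had 12.91, 16.02, 16.23 and 14.81 CPM in Ctrl and 19.44 and 14.41 CPM in LSD1skm-/- muscle, so that the LSD1skm-/- libraries lay apart by a factor of 1.35. Its log2 fold change was 0.17 (95% interval -0.19 to 0.54, adjusted p = 0.72, edgeR), and it turned to -0.06 without LSD1skm-/- replicate 1. *Fbxo40* (chromosome 16, 36963460 to 36990467, minus strand) had 436.1, 506.7, 530.7 and 403.5 CPM in Ctrl and 535.6 and 488.8 CPM in LSD1skm-/- muscle. Its log2 fold change was 0.13 (95% interval -0.20 to 0.45, adjusted p = 0.772, edgeR), with the library labelled Ctrl replicate 4 the lowest of the 6. That library lay on the LSD1skm-/- side of Ctrl replicates 1 to 3 for *Trim54* and *Fbxo31*, and on the other side for *Fbxo40* and *Fbxo21*.

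**Figure D5:**
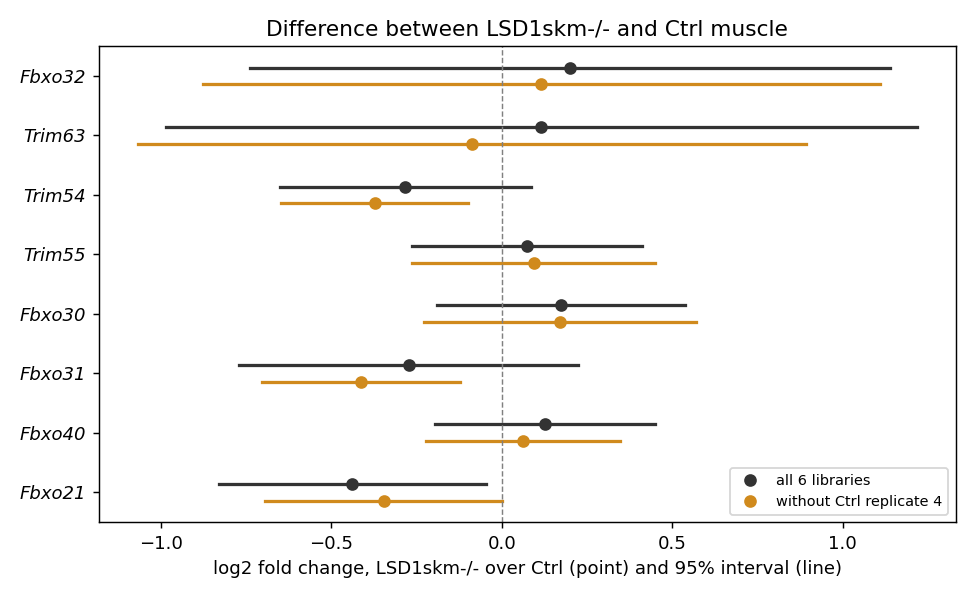
Log2 fold change of LSD1skm-/- over Ctrl muscle (points) with 95% intervals (lines) from edgeR for the 8 ligases, with all 6 libraries (black) and without Ctrl replicate 4 (orange). The intervals of *Fbxo32* and *Trim63* are the widest, and those below 0 are *Fbxo21* with all libraries (-0.83 to -0.05) and *Trim54*, *Fbxo31* and *Fbxo21* without Ctrl replicate 4.

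Of the 8 ligases, 0 had an adjusted p under 0.05 in edgeR in either comparison, and 1 had an unadjusted p under 0.05 with all 6 libraries and 3 without the library labelled Ctrl replicate 4, against 8.9% and 20.2% of tested genes. DESeq2 called 0 of the 8 with all 6 libraries and 2, *Trim54* and *Fbxo31*, without that library, where it called 9.29% of tested genes. The 3 ligases whose groups did not overlap without it, *Trim54*, *Fbxo31* and *Fbxo21*, were all lower. In that comparison 37.7% of tested genes did not overlap, and 17.3% of tested genes were lower without overlap. For these 3 the difference between groups was 79.1%, 77.5% and 67% of the sum of squares over the 5 libraries. The median was 33% over all genes, and *Fbxo32* and *Trim63*, whose groups overlapped, were at 5.71% and 0.493%. Genes picked because their groups do not overlap have a high share by that choice, so these shares are descriptions. An exact two-sided permutation test of single genes cannot go below 0.0667 with 4 against 2 libraries or 0.1 with 3 against 2. It gave 0.133 for *Fbxo21* with all libraries and 0.1 for each of *Trim54*, *Fbxo31* and *Fbxo21* without the library labelled Ctrl replicate 4.

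Reads of the ligases were largely their own. Of the 50-base stretches in their transcripts, 0% of *Trim63*, *Trim54*, *Trim55*, *Fbxo31* and *Fbxo40* occur in transcripts of other genes, 0.0971% of *Fbxo30*, 0.476% of *Fbxo32* and 0.985% of *Fbxo21*. Exons of *Trim54* share 382 of 1436 bases with the antisense gene *Gm15469*, and those of *Fbxo32* share 186 of 6976 bases with *Gm15943*. These antisense rows had 12 to 41 and 2 to 8 reads per library. The strand setting of the counting is not given in the sources used here, so reads of each pair cannot be told apart in the shared bases.

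The genes of the ligases' partners were described in the same way. Of 12 tested genes of the SCF core and neddylation, 0 had an unadjusted p under 0.05 (edgeR), with a median log2 fold change of -0.03 against -0.01 over all tested genes. Without the library labelled Ctrl replicate 4, 1 did, *Cul1*, at -0.35 (adjusted p = 0.14, edgeR). *Cul1* had 94.19, 96.97, 96.52 and 77.43 CPM in Ctrl replicates 1 to 4 and 82.33 and 67.45 CPM in LSD1skm-/- muscle. Of 22 E2 enzymes, 16 were higher, with a median of 0.06, and 2 had an unadjusted p under 0.05, *Ube2e3* at 0.45 and *Ube2v2* at 0.42 (both adjusted p = 0.557, edgeR). Without the library labelled Ctrl replicate 4, 15 were higher, with a median of 0.04, and 3 had an unadjusted p under 0.05, *Ube2e3* at 0.54, *Ube2v2* at 0.49 and *Ube2b* at -0.25 (adjusted p = 0.082, 0.111 and 0.215, edgeR). Without LSD1skm-/- replicate 2, with the other 5 libraries, the median of the E2 list was -0.06. Neither E1 enzyme had an unadjusted p under 0.05 in edgeR in either comparison. Over all tested genes the share was 8.9% with all 6 libraries and 20.2% without the library labelled Ctrl replicate 4.

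Among 26 other ligases of muscle, 3 had an unadjusted p under 0.05 with all 6 libraries (edgeR), against 8.9% of tested genes. Without the library labelled Ctrl replicate 4, 11 did, of which 10 were lower, against 20.2% of tested genes. The median of these ligases was -0.12 and -0.15 in these comparisons. After adjustment 0 passed with all libraries and 2 fell without that library, *Nedd4l* and *Rnf115* (edgeR), where 5.39% of tested genes passed. *Nedd4l*, encoding a HECT ligase of membrane channels, had 46.3, 38.14, 35.77 and 31.05 CPM in Ctrl replicates 1 to 4 and 20.04 and 21.8 CPM in LSD1skm-/- muscle, a log2 fold change of -0.94 without that library (adjusted p = 0.0108, edgeR). *Rnf115*, encoding a RING ligase, had 119.9, 109.5, 109.4 and 63.46 CPM in Ctrl and 50.85 and 60.11 CPM in LSD1skm-/- muscle, and was at -1.02 (adjusted p = 0.00392, edgeR). With all 6 libraries *Nedd4l* was at -0.85 and *Rnf115* at -0.86 (both adjusted p = 0.557). *Asb5*, encoding a substrate-binding subunit of cullin ligases, was at -0.38 and -0.44 in these comparisons (adjusted p = 0.557 and 0.106, edgeR). Over all 45 tested F-box genes, 21 were higher in LSD1skm-/- muscle with all libraries, with a median of -0.02, and over all 33 tested Trim genes 13 were higher, with a median of -0.05. These counts were 20 and 12 without the library labelled Ctrl replicate 4, with medians of -0.01 and -0.06.

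Deubiquitinases, which remove ubiquitin, were lower in 12 of 14 genes with all libraries and had a median of -0.14, with 4 of 14 at an unadjusted p under 0.05 and 0 after adjustment (edgeR). *Usp2* was at 0.34, and *Usp47* and *Usp13* at -0.32 and -0.38. Without the library labelled Ctrl replicate 4 the same number were lower, the median was -0.21, 6 had an unadjusted p under 0.05 and 0 passed after adjustment (edgeR), with *Usp2* at 0.36, *Usp47* at -0.40 and *Usp13* at -0.47. Of 18 genes whose products are named substrates or partners of these ligases, 4 had an unadjusted p under 0.05 with all libraries. Without the library labelled Ctrl replicate 4, 6 did, and all of these were lower in both comparisons (edgeR). Of tested genes, 8.9% had an unadjusted p under 0.05 with all libraries and 20.2% without the library labelled Ctrl replicate 4 (edgeR). The slow myosin gene *Myh7*, in both the substrate and the slow fiber list, fell without that library, by 2.45 on the log2 scale (adjusted p = 0.0313, edgeR), and was at -2.32 with all 6 (adjusted p = 0.557). *Myl2*, also in both lists, was at -0.95 without that library and -0.93 with all 6 (unadjusted p = 0.0228 and 0.0199, edgeR). The fast myosin gene *Myh4* had 52910, 51340, 57080 and 39180 CPM in Ctrl replicates 1 to 4 and 39800 and 35250 CPM in LSD1skm-/- muscle (log2 fold change -0.52, adjusted p = 0.0662 without the library labelled Ctrl replicate 4, and -0.42, adjusted p = 0.557 with it, edgeR).

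The regulators upstream of *Fbxo32* and *Trim63* include myostatin, GR and the FoxO factors. Of 19 tested regulators 1 passed after adjustment without the library labelled Ctrl replicate 4, where 5.39% of tested genes did (edgeR). It was *Mstn*, which encodes myostatin, an inhibitor of muscle growth. *Mstn* had 157.8, 101.9, 124 and 57.18 CPM in Ctrl replicates 1 to 4 and 47.51 and 53.15 CPM in LSD1skm-/- muscle, and fell by 1.34 on the log2 scale without that library (adjusted p = 0.00898, edgeR) and was at -1.13 with all 6 (adjusted p = 0.557). *Nr3c1*, which encodes GR, was at 0.01, *Foxo1* at -0.07 and *Foxo3* at 0.13 with all libraries. They were at -0.12, -0.31 and 0.01 without the library labelled Ctrl replicate 4, and none of the 3 had an unadjusted p under 0.05 in either comparison (edgeR). Of the 21 GR and FoxO targets, 12 were higher with all libraries, with a median of 0.03, and 9 without the library labelled Ctrl replicate 4, with a median of -0.10. After adjustment 1 rose without that library, *Map1lc3a*, an autophagy gene, by 0.80 on the log2 scale (adjusted p = 0.0164, edgeR), and it was at 0.65 with all 6 (adjusted p = 0.557). Of 9 tested genes induced by denervation, 1 rose in that comparison, *Chrna1*, a subunit of the acetylcholine receptor, at 0.69 (adjusted p = 0.0367, edgeR), and it was at 0.42 with all 6 (adjusted p = 0.63).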

How the data were processed

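Libraries of polyA RNA were read from a single end at 50 bases. The authors filtered dimers, mapped the reads to mm10, kept unique alignments and deposited raw counts per gene symbol. Their methods name htseq-count and HOMER, and the aligner is not given in the sources used here. The submitters' processing notes name bcl2fastq 2.20.0.422. Genes with a mean count above 50 over 6 libraries were compared with edgeR 4.0.16 (TMM, quasi-likelihood test, group as the only term, Benjamini-Hochberg adjustment over all tested genes) in R 4.3.3. Standard errors were derived from the fold change and the F statistic, with 95% intervals from the test's degrees of freedom. DESeq2 1.42.0, other scalings, other filters, a replicate block and leaving out each library were alternatives. The design planned for the labelled libraries was run on the 6 analysed here. Log2 CPM used a prior count of 2. Scripts were tested on simulated data. Coordinates and exons are from GENCODE vM21, promoters from RefSeq. Named genes are the ligases, *Kdm1a*, up to 3 genes per list by smallest p in each comparison, and the 5 genes nearest to *Fbxo32* and to *Trim63*. Other list genes were named after their values were seen. The ligases, lists and rules were chosen with earlier results of these data known. Libraries come from separate labelled samples, and no source says more of the mice, so p-values measure the spread between these libraries. Depth limits little here, and the number of LSD1skm-/- libraries limits precision. No 2 libraries were alike within counting error (chi-square over its degrees of freedom, 32.9 to 127). The result of 1 gene list is not reported here.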

Additional observations from a re-analysis of the deposited data

Results flagged for a closer look

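Among the 4 Ctrl libraries, the gap between the extreme library and its neighbour was taken as a share of the group's log2 CPM range. It passed Dixon's 95% limit for 14 of 99 results and 0 of the 8 ligases. Chance gives about 1 in 20 for independent results that were not picked by their values. The 99 included genes picked by smallest p, also without Ctrl replicate 4, and lists that hold some of those genes. That rate is therefore no reference here. The library labelled Ctrl replicate 4 stood apart in 7 of the 14, namely *Kdm1a* (0.88), *Cul1* (0.87), *Rnf115* (0.86), *Neurl2* (0.88), *Col3a1* (0.93), *Alas2* (0.93) and the fibroblast list (0.95). Ctrl replicate 3 stood apart in *Myh7* (0.87), *Cidec* (0.9), *Vwa3b* (0.84) and the adipocyte list (0.83). Ctrl replicate 2 did so in *Usp2* (0.87) and *Chrnd* (0.84), and Ctrl replicate 1 in *Mb* (0.84). The gaps of the ligases were largest for *Fbxo31* (0.63), from the library labelled Ctrl replicate 4, and *Fbxo30* (0.6), from Ctrl replicate 1. *Fbxo32* and *Trim63* had gaps of 0.57 and 0.41.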

How the results depend on the processing

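The count of genes with an adjusted p under 0.05, 0 with all 6 libraries in edgeR, was 46 with DESeq2, 149 with no filter beyond 1 count, 632 with the replicate block and 717 under the study's thresholds, and 0 to 612 when each library was left out. Of the ligases 0 passed, against 1 with the replicate block (*Fbxo32*) and 1 under the study's thresholds (*Fbxo21*), and 0 when each library was left out. With the replicate block *Fbxo32* was at 0.72 (adjusted p = 0.0409, edgeR). No source used here says that same-numbered libraries are paired. Deviations of same-numbered libraries correlated at -0.233 and -0.0334. The deviations of the 2 LSD1skm-/- libraries mirror each other, so these values cannot decide on pairing. Only replicates 1 and 2 enter the difference with the block, which leaves out Ctrl replicate 3. The block changed no other adjusted call of a ligase with all libraries, and *Fbxo21* then had an unadjusted p of 0.172 (edgeR). Across fits that leave out a library, *Fbxo32* ranged from -0.0091 to 0.61, *Trim63* from -0.0915 to 0.57, *Trim54* from -0.37 to -0.20, *Trim55* from 0.00 to 0.17, *Fbxo30* from -0.0623 to 0.37, *Fbxo31* from -0.41 to -0.15, *Fbxo40* from 0.05 to 0.19 and *Fbxo21* from -0.58 to -0.32. Fits with 1 LSD1skm-/- library assume that it varies like the others. *Fbxo32* turned to -0.0091 and *Trim63* to -0.0915 without Ctrl replicate 2, *Trim63* to -0.0873 without Ctrl replicate 4, and *Fbxo30* to -0.0623 without LSD1skm-/- replicate 1. Other scalings kept the direction of all 8 ligases. With library size scaling *Fbxo21* no longer passed the study's p threshold (unadjusted p = 0.0706, edgeR). With the longest coding transcript, *Fbxo31* was at 32.24 and *Fbxo21* at 2.562 CPM per kilobase in Ctrl.

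In the comparison without Ctrl replicate 4, whose alternatives were chosen after seeing the data, 612 genes passed in edgeR, 1056 with DESeq2 and 1724 under the study's thresholds. With 1 further library left out the 612 became 143 (LSD1skm-/- replicate 2), 245 (LSD1skm-/- replicate 1), 321 (Ctrl replicate 1), 480 (Ctrl replicate 2) and 504 (Ctrl replicate 3). There, with each further library left out, *Fbxo32* ranged from -0.20 to 0.69 and was at -0.053 without LSD1skm-/- replicate 1. *Trim63* ranged from -0.43 to 0.41, the latter without Ctrl replicate 3, and was at 0.50 with the replicate block. *Trim55* ranged from -0.0056 (without Ctrl replicate 1) to 0.25 and *Fbxo30* from -0.0709 (without LSD1skm-/- replicate 1) to 0.37. *Fbxo40* ranged from -0.0183 (without Ctrl replicate 1) to 0.12 and was at -0.0154 without LSD1skm-/- replicate 1. *Fbxo32* with the block was at 0.72 (adjusted p = 0.0252, edgeR). *Trim54*, *Fbxo31* and *Fbxo21* stayed below 0 in every alternative of that comparison.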
